A study of Homo sapiens with 54 samples.

Results

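The genes described here are 7 human genes of cholesterol synthesis and its regulation: HMGCS1, IDI1, SQLE, LSS, MSMO1 (SC4MOL in older annotation), DHCR7 and INSIG1. They were chosen by name, from a list of 8 sterol genes, and found as the array's probe sets that the platform annotation gives to those symbols alone. That gave 16 probe sets for 7 of the 8 genes, and 15 of the 16 passed the filter on low signal, out of 13422 probe sets and 8105 genes kept in all; the 8th gene, FDFT1, is not analysed here. The list was named for synthesis and uptake, but 6 of the 7 genes encode enzymes of the synthesis pathway, INSIG1 encodes a regulator, and none encodes a sterol uptake protein. Each gene is counted by the brightest of its kept probe sets (HMGCS1 221750_at, IDI1 208881_x_at, SQLE 209218_at, LSS 202245_at, MSMO1 209146_at, DHCR7 201790_s_at and INSIG1 201627_s_at). In RefSeq's annotation of GRCh38.p14, HMGCS1 lies at chr5:43287470-43313412, IDI1 at chr10:1039152-1056704, LSS at chr21:46188446-46228774, MSMO1 at chr4:165327669-165343164, DHCR7 at chr11:71427287-71449043 and INSIG1 at chr7:155297878-155310235.

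The 54 arrays measured total RNA of HT-29, a cell line from a human colon adenocarcinoma, in which every culture, the untreated ones included, had been sensitized with interferon-gamma at 200 U/ml for 24 h. The cultures then received TNF 100, TNF 5, EGF 100, insulin 500, TNF 100 with EGF 100, TNF 100 with insulin 500, TNF 5 with EGF 1, TNF 5 with insulin 5, or none of the 3 factors ("untreated" below), the numbers being doses in ng/ml. RNA was taken after 4, 8 and 16 h, with 2 arrays for each of the 27 combinations of treatment and time, described by the series as biological duplicates. All results are of 1 cell line, with no culture lacking interferon-gamma. In bulk RNA fewer expressing cells and less RNA per cell cannot be told apart.

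Cholesterol is made from acetyl-CoA through a long chain of enzymes in the cytosol and endoplasmic reticulum. Their genes are switched on together by the transcription factor SREBP-2, which is released from the endoplasmic reticulum when membrane cholesterol is low. INSIG1 is itself a target of SREBP and its protein holds the SREBP escort SCAP back in the endoplasmic reticulum when sterols are plentiful, so the gene is widely read as a marker of SREBP activity. Among the factors given here, insulin is known in liver to raise the SREBP-1c branch, which serves fatty acid synthesis.

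All 7 genes had lower signal at 16 h than at 4 h when averaged over the 9 treatments, and for 5 of them the difference was larger than 1 on the log2 scale. INSIG1 had the largest change, and the genes that changed least were DHCR7 and LSS. For 6 of the 7 most of the change lay between 8 and 16 h, and for 5 it was present in cells that received none of the 3 factors. Changes are given as log2 differences of deposited signal plus 12.49, averaged over arrays, so that folds of dim genes are understated.

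HMGCS1, the cytosolic synthase that makes HMG-CoA ahead of the rate-limiting step, had signals of 683 to 1809 (median 1383) on the 18 arrays at 4 h, 629 to 1913 (median 1028) at 8 h and 214 to 648 (median 327) at 16 h. Its brightest array at 16 h was thus just above its dimmest at 8 h, and within each treatment both 16 h arrays were below both 4 h arrays. IDI1, which interconverts the isoprenoid building blocks IPP and DMAPP, had signals of 3330 to 5259 (median 4257) at 4 h, 2769 to 5011 (median 3699) at 8 h and 727 to 2282 (median 1050) at 16 h. No IDI1 array at 16 h reached any array at the earlier times. SQLE, which adds the oxygen that makes squalene ready for ring closure and is a flux-controlling step, had signals of 5632 to 8067 (median 6932) at 4 h, 6427 to 8900 (median 7429) at 8 h and 1992 to 5768 (median 2826) at 16 h.

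SQLE held its signal at 8 h and overlapped at 16 h with earlier arrays through 1 array, replicate 1 of TNF 100 with EGF 100. MSMO1, a C-4 methyl sterol oxidase that acts after lanosterol, had 715 to 1767 (median 1258) at 4 h, 622 to 1689 (median 1313) at 8 h and 173 to 554 (median 289) at 16 h, again with no overlap of the 16 h arrays with the others. INSIG1 had 2359 to 4613 (median 3587) at 4 h, 1056 to 4033 (median 2316) at 8 h and 216 to 869 (median 375) at 16 h, and among these 5 genes its 8 h median was furthest below that at 4 h. All 18 arrays at 16 h were below all 36 earlier ones for INSIG1, IDI1 and MSMO1, a pattern that 0.291% of all kept probe sets showed.

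LSS, the cyclase that closes the rings to form lanosterol, and DHCR7, the reductase of the last step to cholesterol, were different in degree. LSS had 666 to 1225 (median 870) at 4 h, 530 to 1341 (median 753) at 8 h and 557 to 953 (median 715) at 16 h, and its ranges overlapped throughout. DHCR7 had 1344 to 3079 (median 2248) at 4 h, 1362 to 3217 (median 2050) at 8 h and 858 to 2461 (median 1467) at 16 h, also with overlapping ranges.

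**Figure D1:**
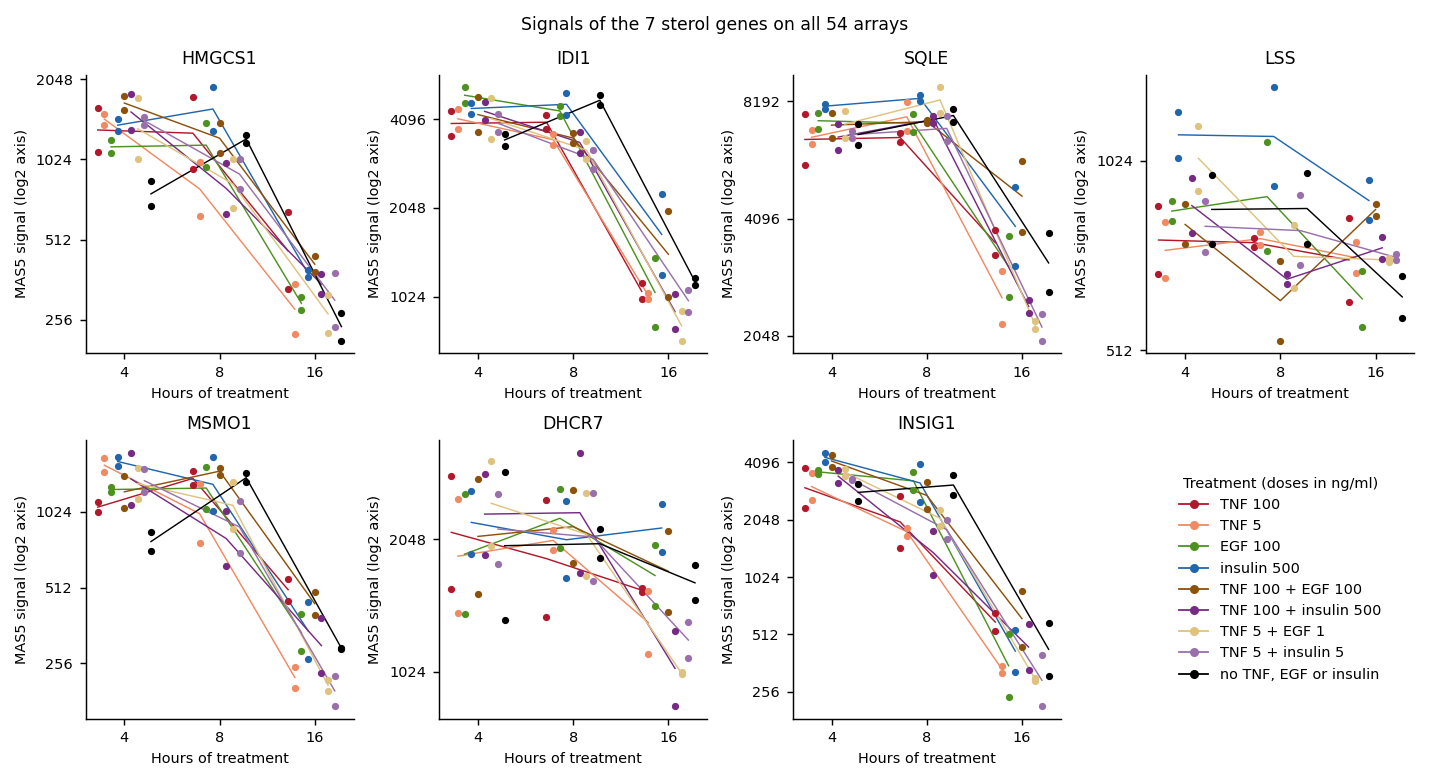
MAS5 signal (log2 axis) of each sterol gene against hours of treatment. Each point is 1 array, colours are the 9 treatments in the order of the legend, set slightly apart at each time, and lines join the geometric means of the 2 arrays. HMGCS1, IDI1, SQLE, MSMO1 and INSIG1 are lower at 16 h than at 4 h without overlap in all 9 treatments, LSS in 6 and DHCR7 in 3.

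The test of time over all treatments, limma's moderated F test of the 8 h and 16 h differences from 4 h, called 7 of 7 genes, all lower at 16 h, where 62.5% of all kept probe sets were called and 30.9% were called and lower. Being called was therefore common on these arrays and the size of the change was not: 2.51% of kept probe sets were called and lower by at least 1. The mean change from 4 h to 16 h was -3.05 for INSIG1 (SE 0.12, 8.31-fold lower, adjusted p = 4.53e-21), -2.02 for MSMO1 (SE 0.10, adjusted p = 6.53e-19), -1.96 for HMGCS1 (SE 0.11, adjusted p = 1.94e-17) and -1.91 for IDI1 (SE 0.08, adjusted p = 1.38e-20). SQLE changed by -1.22 (SE 0.07, adjusted p = 1.31e-18), DHCR7 by -0.55 (SE 0.13, adjusted p = 0.00056) and LSS by -0.25 (SE 0.07, adjusted p = 0.00872). The median change of the 7 genes was -1.91, and that of all 8105 genes was 0.01. The p-values measure the spread between 2 cultures per group and take the arrays as independent. In some genes, however, arrays with the same replicate number shifted together across treatments (below). Standard errors and p-values of averages over 9 treatments leave this out and can be too small. For DHCR7 the change of -0.55 was smaller than the median gap of 0.85 between replicate numbers at 4 h.

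The contrast of 16 h with 8 h alone, added after the values had been seen, called 6 of 7 genes, all lower, where 50.5% of kept probe sets were called, 24.8% called lower and 1.04% lower by at least 1. INSIG1 changed by -2.45 (SE 0.12), MSMO1 by -1.90 (SE 0.10), IDI1 by -1.77 (SE 0.08), HMGCS1 by -1.66 (SE 0.11), SQLE by -1.31 (SE 0.07) and DHCR7 by -0.53 (SE 0.13). LSS, at -0.12 with a 95% interval of -0.26 to 0.03, did not pass (adjusted p = 0.168). Ordered by this change among 8105 genes, INSIG1 was 1st, MSMO1 5th, IDI1 7th, HMGCS1 11th, SQLE 25th, DHCR7 585th and LSS 3074th. Between 4 and 8 h the differences were small on average, while single treatments varied. HMGCS1 ran from 0.67 in untreated cells to -0.94 under TNF 100 with insulin 500. In the same 2 groups MSMO1 ran from 0.83 to -0.78 and INSIG1 from 0.13 to -1.33. On average INSIG1 changed by -0.60 and HMGCS1 by -0.30, which passed the single 8 h contrast (adjusted p = 0.000295 and 0.0365). Of kept probe sets 23.3% passed it. The other 5 average changes lay between -0.14 and 0.09 and did not pass.

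**Figure D2:**
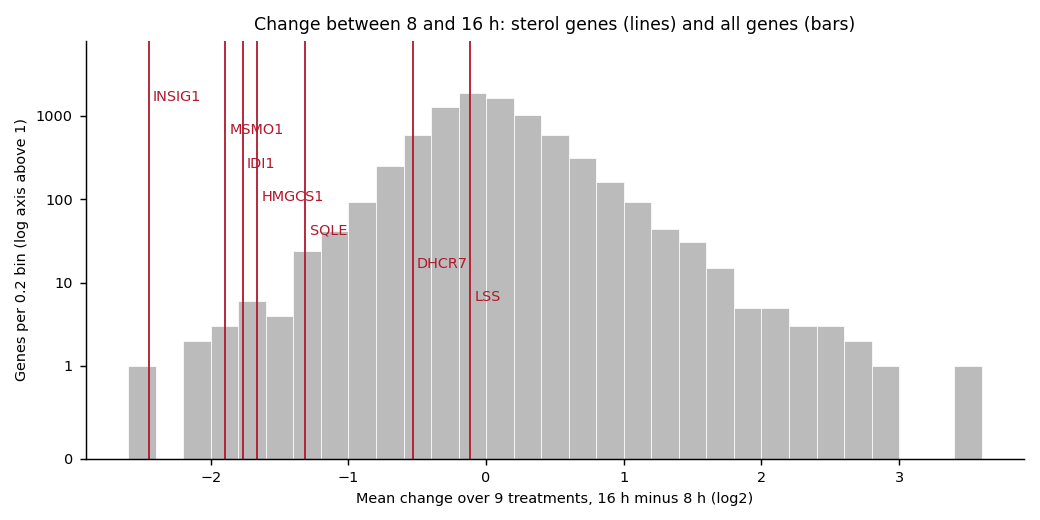
Number of genes (log axis above 1) by mean log2 change from 8 h to 16 h over the 9 treatments, in bins of 0.2. Red lines mark the 7 sterol genes: INSIG1 stands at the lowest value of all 8105 genes, at -2.45, and LSS near the middle of the distribution.

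Promoters are shown for INSIG1, MSMO1 and HMGCS1, the genes that changed most, and for LSS, which changed least. Each line gives the 250 bases before a RefSeq transcription start (GRCh38.p14), 5′ to 3′ on the gene's strand. Capitals mark CCAAT, the box read by NF-Y, a factor that works beside SREBP on many sterol genes, or its complement ATTGG, and in INSIG1 also the E-box CACGTG. The stretches lie upstream of INSIG1 on the plus strand (chr7:155297628-155297877), of MSMO1 on the plus strand (chr4:165327419-165327668), of the HMGCS1 start with the most CCAAT boxes on the minus strand (chr5:43313413-43313662) and of LSS on the minus strand (chr21:46228775-46229024).
INSIG1: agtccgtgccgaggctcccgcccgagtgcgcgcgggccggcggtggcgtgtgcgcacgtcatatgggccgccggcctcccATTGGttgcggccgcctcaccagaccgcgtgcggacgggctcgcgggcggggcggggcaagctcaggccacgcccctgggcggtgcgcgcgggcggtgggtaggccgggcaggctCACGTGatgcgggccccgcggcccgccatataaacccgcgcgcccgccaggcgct
MSMO1: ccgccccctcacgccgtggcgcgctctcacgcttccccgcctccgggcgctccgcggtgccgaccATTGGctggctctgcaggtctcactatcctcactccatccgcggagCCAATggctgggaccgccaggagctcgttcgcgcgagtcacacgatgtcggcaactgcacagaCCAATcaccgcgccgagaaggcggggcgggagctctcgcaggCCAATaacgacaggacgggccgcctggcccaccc
HMGCS1: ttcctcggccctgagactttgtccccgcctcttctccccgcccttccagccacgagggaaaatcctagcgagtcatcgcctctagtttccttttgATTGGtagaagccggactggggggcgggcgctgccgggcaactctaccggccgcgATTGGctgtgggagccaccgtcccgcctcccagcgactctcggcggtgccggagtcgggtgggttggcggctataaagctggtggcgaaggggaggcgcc
LSS: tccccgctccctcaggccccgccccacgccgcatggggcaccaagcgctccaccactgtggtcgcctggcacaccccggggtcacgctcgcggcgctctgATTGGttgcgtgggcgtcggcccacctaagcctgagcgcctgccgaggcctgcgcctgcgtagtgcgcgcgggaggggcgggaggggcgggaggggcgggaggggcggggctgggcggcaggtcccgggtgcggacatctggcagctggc

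Windows from 250 bases before to 50 after the start were searched on both strands for 6 of the 7 genes; SQLE was not among the windows used. CCAAT occurred in at least 1 window of 6 of the 6 genes, against 39.7% of the 27305 genes with a window. GGGCGG, the core of the SP1 box, was also present for 6 of 6, against 48.3% of genes. CACGTG occurred for 2 of 6, INSIG1 and LSS, against 8.77% of genes. TCACNCCAC, 1 form of the sterol regulatory element, occurred for 0 of 6 and for 1.39% of genes, which says only that these letters are not in these windows. MSMO1 held 4 CCAAT boxes, HMGCS1 2 in the window shown, and INSIG1 and LSS 1 each. The other HMGCS1 window held 0, the 3 windows of IDI1 held 3, 2 and 0, and the 2 of DHCR7 held 2 and 0.

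In untreated cells alone, with 2 arrays per time, 5 of the genes were again called lower at 16 h. HMGCS1 had signals of 683 and 848 at 4 h, 1177 and 1270 at 8 h and 214 and 272 at 16 h. INSIG1 had 2561 and 3168 at 4 h, 3507 and 2764 at 8 h and 589 and 311 at 16 h. MSMO1 had 715 and 853 at 4 h, 1344 and 1464 at 8 h and 295 and 292 at 16 h.

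For all 3 genes both 16 h arrays were below the 4 others, and for HMGCS1 and MSMO1 both 8 h arrays were above both 4 h arrays, although neither 8 h difference passed its own test (0.67 and 0.83, adjusted p = 0.667 and 0.435; 0.32% of kept probe sets passed it). The F test of time in untreated cells called 5 of 7 genes, all lower, where 9.59% of kept probe sets were called and 3.89% called lower. The changes from 4 h to 16 h were -2.70 for INSIG1 (SE 0.36), -1.61 for HMGCS1 (SE 0.32), -1.58 for IDI1 (SE 0.25), -1.37 for MSMO1 (SE 0.30) and -1.09 for SQLE (SE 0.20). LSS at -0.45 (95% interval -0.88 to -0.03, adjusted p = 0.24) and DHCR7 at -0.28 (-1.09 to 0.53, adjusted p = 0.908) did not pass.

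The lower 16 h signal of 5 genes was seen in every treatment, with sizes that differed. Both arrays at 16 h were below both at 4 h in 9 of 9 treatments for HMGCS1, IDI1, SQLE, MSMO1 and INSIG1, in 6 for LSS and in 3 for DHCR7. Of kept probe sets 5.17% did so in all 9, and the share that did so in fewer treatments was not counted. INSIG1 changed by -3.56 from 4 h to 16 h under TNF 5 with EGF 1, the largest of its 9 values, and by -2.32 under TNF 100, the smallest. MSMO1 likewise ranged from -2.74 under TNF 5 to -1.07 under TNF 100, and HMGCS1 from -2.32 under TNF 5 to -1.48 under TNF 100. Whether the time course differs between TNF 100 and untreated cells was tested directly and called 0 of 7 genes (0 at unadjusted p under 0.05), where 2.44% of kept probe sets were called. Counts at unadjusted p under 0.05, here and below, are given without the share of all kept probe sets at that level.

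The brightest arrays at 16 h came from different treatments in different genes. For HMGCS1 (648) and MSMO1 (554) they were under TNF 100, and for INSIG1 (869) under TNF 100 with EGF 100. IDI1 had 2282 and 1216 under insulin 500 and 1994 and 1021 under TNF 100 with EGF 100, against 1123 and 1183 in untreated cells. SQLE had 5768 and 3793 under TNF 100 with EGF 100 and 4937 and 3100 under insulin 500, against 3750 and 2649 in untreated cells. The 2 arrays of these treated IDI1 and SQLE groups lay far apart, replicate 1 the brighter in each. Under TNF 100 replicate 2 was the brighter for HMGCS1 (333 and 648) and MSMO1 (454 and 554). Among the IDI1 and SQLE groups, both arrays lay above both untreated ones for IDI1 under insulin 500 and for SQLE under TNF 100 with EGF 100. The other pairs of these 2 genes overlapped with untreated cells.

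A gene's probe sets mostly moved alike. The other kept probe sets of HMGCS1 (1), INSIG1 (2), IDI1 (1) and SQLE (2) were called lower over all treatments, with changes from -1.14 to -2.34. MSMO1 had no other. Both IDI1 probe sets carry the suffix that Affymetrix gives to sets that may also bind other transcripts. DHCR7 depended on the probe set: 201791_s_at changed by -1.24 (adjusted p = 1.38e-17) against -0.55 for the counted set, and it passed in untreated cells too (-0.92, adjusted p = 0.00087). LSS 211019_s_at changed by -0.30 over all treatments and did not pass (adjusted p = 0.0845).

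The counted probe set of DHCR7 separated the replicate numbers at the first 2 times. At 4 h replicate 1 was brighter than replicate 2 in 9 of 9 treatments, by a median of 0.85 on the log2 scale, and at 8 h in 9 of 9, by 0.58. At 8 h HMGCS1 and MSMO1 showed the opposite, with replicate 2 brighter in 9 of 9 treatments, and at 16 h INSIG1 was brighter in replicate 1 in 9 of 9. Arrays with the same replicate number shared deviations from their group means across all kept probe sets. At 8 h 36 of 36 pairs of treatments correlated above 0.1 (median 0.43). At 4 h 27 of 36 did (median 0.20) and at 16 h 31 of 36 (median 0.21), so sharing there was weaker but not absent. A fit with the replicate number as a block at 8 h is therefore given below wherever it changes a call.

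Related genes were described from lists of their pathways, counted over genes and read by the sign of the change from 4 h to 16 h, beside 62.5% of all kept probe sets called, 30.9% lower and 31.6% higher. Of 13 other sterol synthesis enzymes measured, 11 were called lower and 1 higher, with a median of -0.59. The largest changes were in EBP, the isomerase of the late pathway (-0.94, SE 0.09, adjusted p = 4e-14), and MVD, which decarboxylates mevalonate diphosphate (-0.91, SE 0.19, adjusted p = 3.71e-05). The 1 called higher was GGPS1, named here after its value was seen, which makes geranylgeranyl diphosphate for protein prenylation and stands on a branch away from sterols (0.32, SE 0.06, adjusted p = 8.37e-06). Every one of these 12 changes was smaller in size than that of SQLE.

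Of 9 sterol sensing and SREBP processing genes, 2 were called lower and 2 higher, with a median of -0.06 (2 of 9 called without the 8 h arrays). The fit without the 8 h arrays called 7787 of 13422 kept probe sets. INSIG2, the paralog of INSIG1 that is not driven by SREBP in the same way, was higher by 0.95 (SE 0.09, adjusted p = 6.22e-10), so the 2 INSIG genes moved in opposite directions. SREBF2, which encodes SREBP-2, was lower by 0.32 (SE 0.08, adjusted p = 2.41e-05), and SREBF1 changed by 0.05 (SE 0.14) and did not pass (adjusted p = 0.712). Of 6 uptake and traffic genes, 4 were called lower and 1 higher with a median of -0.09 (2 of 6 called without the 8 h arrays), led by SCARB1, the HDL receptor, at -0.92 (SE 0.06, adjusted p = 1.73e-15).

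Of 8 fatty acid genes known as SREBP targets, 6 were called lower and 1 higher, with a median of -0.49. FASN, the fatty acid synthase, changed by -1.57 (SE 0.11, adjusted p = 1.29e-14), a larger value than that of SQLE. Of 5 efflux, storage and LXR genes, 0 were called lower and 2 higher. ABCG1, a sterol exporter driven by LXR, was higher by 1.10 (SE 0.17, adjusted p = 6.34e-07). In untreated cells alone, FASN changed by -1.90 (SE 0.32, adjusted p = 2.8e-05) and NPC1, which moves cholesterol out of lysosomes, by 0.95 (SE 0.20, adjusted p = 0.0039). There 3 of the 13 other synthesis enzymes were called lower and 2 higher, where 9.59% of kept probe sets were called and 3.89% called lower. None of the 13 was called when only the untreated arrays were fitted, where 360 of 13422 kept probe sets were.

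**Figure D3:**
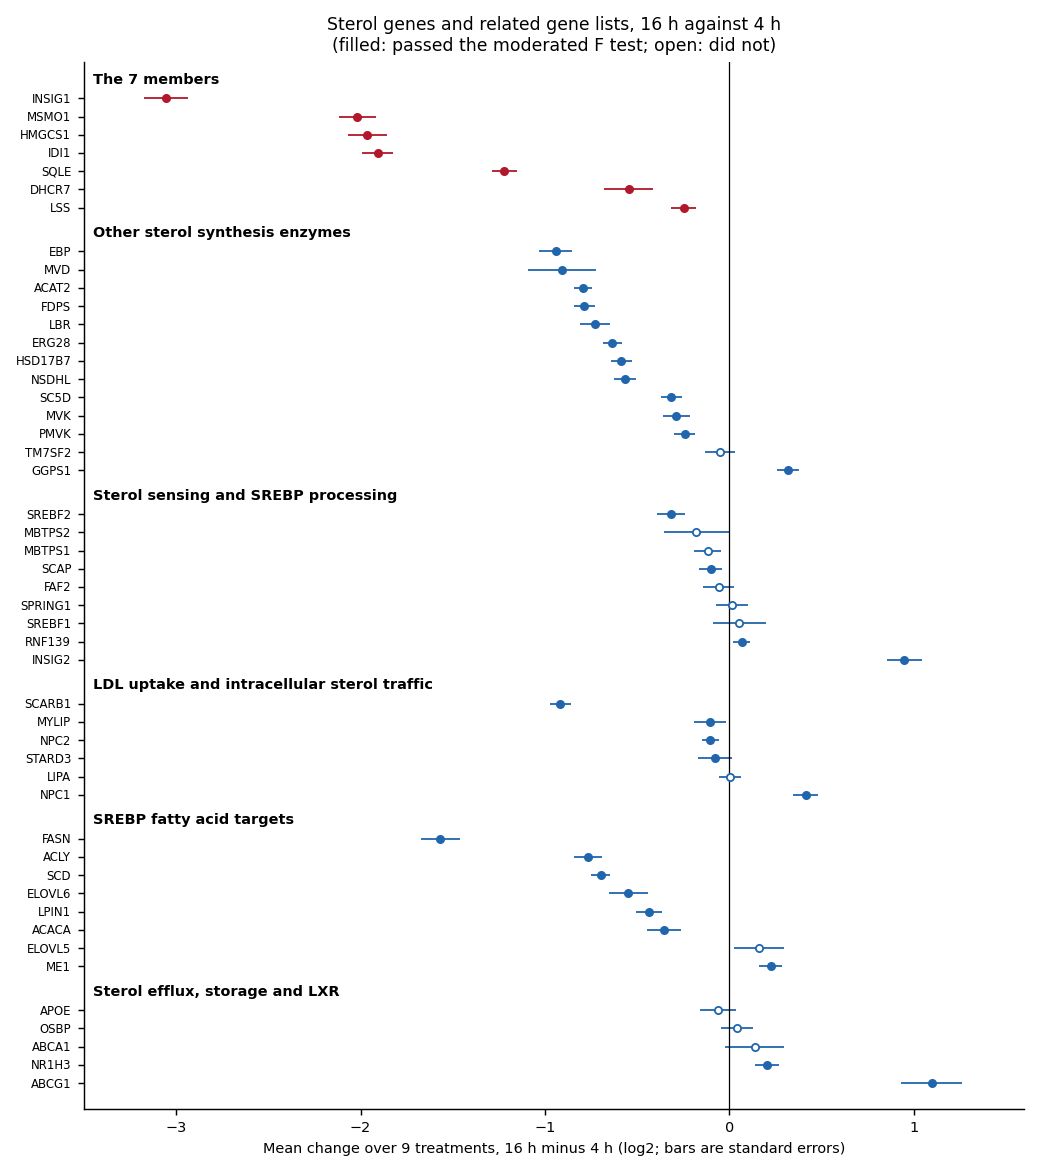
Mean log2 change from 4 h to 16 h over the 9 treatments, with standard errors, for the 7 sterol genes (red) and the related gene lists (blue). Filled points passed the moderated F test over the 2 time differences and open points did not. INSIG1 stands at -3.05 and its paralog INSIG2 at 0.95.

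Across the 27 group means the 7 genes varied together. The 21 pairwise Pearson correlations had a median of 0.88 and a lowest value of 0.40, between LSS and DHCR7, and without LSS the 15 remaining pairs had a median of 0.95. After the mean of each time was removed, 21 of 21 pairs remained above 0, with a median of 0.54, the highest being INSIG1 with MSMO1 at 0.78 and HMGCS1 with MSMO1 at 0.77. These values are descriptions, since all points share arrays, scaling and time. The genes outside the list whose pattern was most like the average of the 7 were CCT3, a chaperonin subunit, HSPE1, a mitochondrial chaperonin, NMT1, GID8, UBE2N, MCRS1, EIF4E2, SF3A3, PDHA1 and TUBB, with r from 0.95 to 0.96, and the most opposite were ALDH2, RIOK3, CALCOCO2, TCF12 and SARS1, with r from -0.95 to -0.96. None of these 15 belongs to a sterol or lipid list used here, and the highest such gene was NSDHL, a sterol dehydrogenase, with r of 0.91 at rank 77 of 8098 genes.

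Treatments were compared with untreated cells at the same times, and most sterol genes passed no such test. TNF at 100 ng/ml against untreated cells called 1 of 7 genes, HMGCS1, higher, where 16.3% of kept probe sets were called and 6.69% called higher. HMGCS1 had 1092 and 1599 under TNF 100, against 683 and 848 untreated, at 4 h. At 8 h it had 941 and 1756 under TNF 100, against 1177 and 1270 untreated, and at 16 h 333 and 648, against 214 and 272.

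The TNF 100 arrays of HMGCS1 were thus above both untreated arrays at 4 h and 16 h and on both sides of them at 8 h. The mean change was 0.59 (SE 0.18, adjusted p = 0.0458, with 5 of 6 arrays above the untreated mean of their time). The call was marginal: it was lost when any 1 of 8 of the 12 arrays was left out, namely any of the 6 untreated arrays or replicate 2 of TNF 100 at 4 h or 16 h, with changes from 0.43 to 0.64 and adjusted p from 0.0549 to 0.243. It was lost too with all probe sets tested (adjusted p = 0.0687) and with only these 2 treatments fitted (adjusted p = 0.177). The second HMGCS1 probe set changed by 0.41 and did not pass (adjusted p = 0.895). MSMO1 changed by 0.40 (95% interval 0.04 to 0.75, adjusted p = 0.207) and passed with only these 2 treatments fitted (adjusted p = 0.049). The mean changes of the other 5 genes over the times lay between -0.06 and -0.02. Such a mean can average opposite differences. The mean log2 signal of INSIG1 was 10.97 under TNF 100 against 11.61 in untreated cells at 8 h, and 9.25 against 8.79 at 16 h.

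Of the related lists under TNF 100, where 9.66% of kept probe sets were called lower, 4 of 13 other synthesis enzymes were called lower, 1 of 9 sensing genes, 3 of 6 uptake and traffic genes with 1 higher, 3 of 8 fatty acid genes and 1 of 5 efflux genes. The largest changes were NPC1 at 0.72 (SE 0.12), INSIG2 at -0.67 (SE 0.16), MYLIP, which tags the LDL receptor for degradation, at -0.65 (SE 0.15), NR1H3, which encodes LXR alpha, at -0.62 (SE 0.11), ELOVL6, a fatty acid elongase, at -0.60 (SE 0.18), and LBR, a sterol reductase of the nuclear envelope, at -0.58 (SE 0.14). SREBF1 (-0.25) and SREBF2 (-0.15) did not pass. The direction of calls depended on scaling in this comparison: 40.9% of all calls were higher as deposited and 58.6% after each array was centred on its median, and none of the other synthesis enzymes, sensing genes or fatty acid genes was then called. With only these 2 treatments fitted no other synthesis enzyme or fatty acid gene was called either.

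TNF at 5 ng/ml against untreated cells called 0 of 7 genes (2 at unadjusted p under 0.05), where 6.81% of kept probe sets were called. MSMO1 had 1473 and 1678 under TNF 5, against 715 and 853 untreated, at 4 h, and 248 and 203, against 295 and 292, at 16 h. It was above the untreated arrays at the first time and below them at the last, and its mean change over times was 0.05 (adjusted p = 0.0761). With the 8 h replicate block MSMO1 (adjusted p = 0.00814) and HMGCS1 (0.17, adjusted p = 0.0193) passed the F test, which looks for a difference at any time. That fit called 1200 of 13422 kept probe sets, against 914 without the block. TNF 100 against TNF 5 called 0 of 7 genes (2 at unadjusted p under 0.05), where 1.27% of kept probe sets were called. All 7 changes were above 0, from 0.01 to 0.42, MSMO1 (0.34, adjusted p = 0.083) passed with the 8 h block (adjusted p = 0.00794), and the SQLE probe set 213577_at, not the counted one, passed without it (0.46, adjusted p = 0.0195). The 8 h block raised the calls over all kept probe sets from 170 to 286. Of all calls in this comparison 49.4% were higher as deposited, 71.6% after median centring and 61.3% after quantile normalization.

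At 4 h every treatment lay above untreated cells for 2 genes. The 16 treated arrays of HMGCS1 had signals from 1028 to 1809, against 683 and 848 in untreated cells, and those of MSMO1 from 1020 to 1767, against 715 and 853. For INSIG1 and IDI1, 6 of 8 treated groups lay wholly above the untreated pair, for SQLE and LSS 1 of 8 (6 and 3 of 8 after median centring), and for DHCR7 0 of 8. Of all kept probe sets 1.27% had 8 of 8 treated groups above, and the 8 comparisons share the same 2 untreated arrays. The share with fewer groups above, such as 6 of 8, was not counted. The single 4 h contrasts of HMGCS1 and MSMO1 did not pass for TNF 100 (0.79 and 0.45, adjusted p = 0.224 and 0.648; 4.37% of kept probe sets passed) or TNF 5 (0.92 and 1.00, adjusted p = 0.211 and 0.0984; 1.88% passed). Nor did they for EGF 100 (0.58 and 0.68, adjusted p = 0.922 and 0.748; 0.395% passed) or insulin 500 (0.85 and 1.05, adjusted p = 0.653 and 0.255; 0.156% passed).

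**Figure D4:**
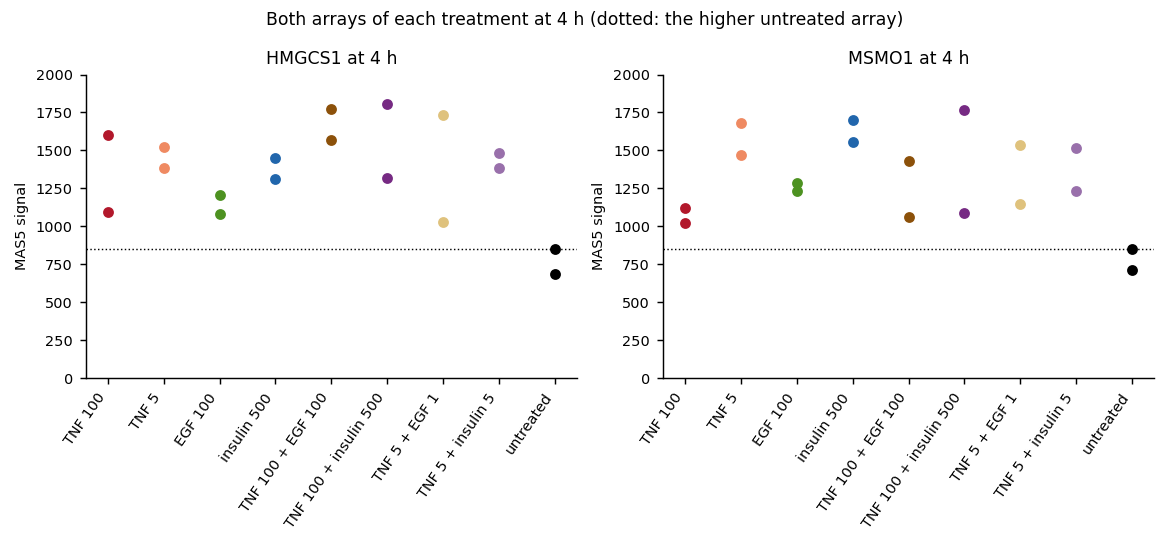
MAS5 signal of HMGCS1 and MSMO1 on both arrays of each treatment at 4 h. The dotted line is the brighter of the 2 untreated arrays, 848 for HMGCS1 and 853 for MSMO1, and all 16 treated arrays lie above it in both genes.

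EGF at 100 ng/ml against untreated cells called 0 of 7 genes (0 at unadjusted p under 0.05), where 0.596% of kept probe sets were called. The changes lay between 0.01 for SQLE and LSS and 0.26 for HMGCS1, whose 95% interval was -0.12 to 0.63. NPC1 was the only gene of the related lists to pass, higher by 0.71 (SE 0.12, adjusted p = 0.000323).

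Insulin at 500 ng/ml against untreated cells called 0 of 7 genes by limma (3 at unadjusted p under 0.05), where 0.231% of kept probe sets were called. HMGCS1 had 1450 and 1309, 1313 and 1913, and 370 and 394 under insulin at 4, 8 and 16 h, against 683 and 848, 1177 and 1270, and 214 and 272 in untreated cells. Every insulin array was above both untreated arrays of its time, with a mean change of 0.62 (95% interval 0.24 to 0.99, adjusted p = 0.563). The share of all kept probe sets so separated was not counted. LSS had 1225 and 1035, 1341 and 935, and 953 and 823 under insulin, against 972 and 756, 980 and 754, and 576 and 672 in untreated cells.

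LSS overlapped only at 8 h, and its mean change was 0.42 (95% interval 0.18 to 0.67, adjusted p = 0.534). MSMO1 changed by 0.39 (95% interval 0.04 to 0.75, adjusted p = 0.534), of which most lay at 4 h (1.05). All 7 changes were above 0, with a median of 0.28 against 0.02 for all genes. Insulin 500 against EGF 100 also called 0 of 7 (1 at unadjusted p under 0.05), where 0.618% were called, and LSS, at 0.41 (95% interval 0.16 to 0.65, adjusted p = 0.416), was above the EGF mean of its time in 6 of 6 insulin arrays, although the 8 h arrays overlapped.

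Adding TNF to insulin gave the largest set of sterol calls among the treatments. TNF 100 with insulin 500 against insulin 500 called 3 of 7 genes, all lower, where 20.3% of kept probe sets were called and 11.4% called lower. LSS had 960 and 786, 651 and 677, and 714 and 776 with TNF and insulin at 4, 8 and 16 h, against 1225 and 1035, 1341 and 935, and 953 and 823 with insulin. All 6 arrays were below both insulin arrays of their time, with a mean change of -0.45 (SE 0.12, adjusted p = 0.0175). How many other probe sets were so separated was not counted, here or for SQLE below.

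SQLE had 7142 and 6152, 7192 and 7528, and 2529 and 2348 with both factors, against 8067 and 7847, 8483 and 8184, and 4937 and 3100 with insulin. It too was lower in 6 of 6 arrays, by 0.37 on average (SE 0.12, adjusted p = 0.0411), with the largest difference at 16 h (-0.68). IDI1 had 4667 and 4065, 3136 and 3719, and 1043 and 796 with both factors, against 4262 and 4652, 4225 and 5011, and 2282 and 1216 with insulin, and changed by -0.44 (SE 0.14, adjusted p = 0.0301), with -0.03 at 4 h and -0.86 at 16 h.

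The other 4 genes changed in the same direction without passing: INSIG1 by -0.49 (adjusted p = 0.0662), MSMO1 by -0.38 (adjusted p = 0.285), HMGCS1 by -0.31 (adjusted p = 0.122) and DHCR7 by -0.26 (adjusted p = 0.238). INSIG1 had 1056 and 1786 with both factors at 8 h, against 4033 and 2528 with insulin, and its 8 h contrast passed (-1.21, adjusted p = 0.0245; 10.3% of kept probe sets passed it). The median of the 7 was -0.38, against -0.10 for all genes. With the 8 h replicate block 5 of 7 genes passed, HMGCS1 (adjusted p = 0.0231) and INSIG1 (adjusted p = 0.0377) in addition. That fit called 3372 of 13422 kept probe sets, against 2726 without the block. Counting a gene by any of its probe sets gave 5 of 7 as well, through INSIG1 201626_at (-0.47, adjusted p = 0.00476) and DHCR7 201791_s_at (-0.57, adjusted p = 0.000395). A gene with several probe sets has more chances to be counted this way, and the share over all genes was not counted.

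These calls were not stable. None of the 7 passed after median centring, with only these 2 treatments fitted or without the 8 h arrays. Leaving out replicate 1 of TNF 100 with insulin 500 at 8 h left 0. Leaving out replicate 1 of insulin 500 at 16 h or its replicate 2 at 8 h left 1. LSS also lost its call without replicate 1 of insulin at 8 h or either replicate of both factors at 8 h (adjusted p from 0.0509 to 0.143). IDI1 lost it without replicate 1 of insulin at 16 h, replicate 2 of insulin at 8 h, replicate 2 of both factors at 16 h or replicate 1 of both at 8 h (0.0574 to 0.378). SQLE kept it in 4 of 12 such fits, those without replicate 2 of insulin at 16 h, replicate 1 of insulin at 8 h, replicate 1 of both factors at 4 h or replicate 2 of both at 8 h (0.0519 to 0.439 in the other 8). As deposited 43.8% of all calls in this comparison were higher, and after median centring 64.3%.

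In the same comparison 6 of 13 other synthesis enzymes and 4 of 8 fatty acid genes were called lower, with none higher, beside the 11.4% of kept probe sets called lower. The largest changes were NPC1 at 0.82 (SE 0.12), ELOVL6 at -0.81 (SE 0.18), FASN at -0.79 (SE 0.18), ACLY, which makes cytosolic acetyl-CoA, at -0.77 (SE 0.13), LBR at -0.63 (SE 0.14) and SCARB1 at -0.53 (SE 0.10). After median centring 2 of the 13 enzymes passed, where 2005 of the 13304 probe sets kept in that setting were called.

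**Figure D5:**
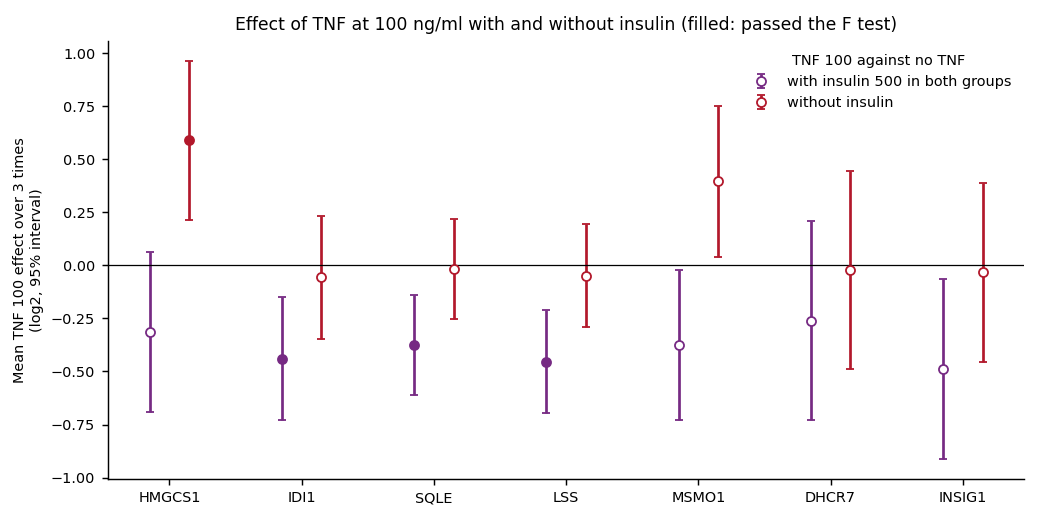
Mean effect of TNF at 100 ng/ml over 4, 8 and 16 h (log2, with 95% intervals), with insulin 500 in both groups (purple) and without insulin (red). Filled points passed the moderated F test over the 3 times: IDI1, SQLE and LSS with insulin, HMGCS1 without. All 7 purple points lie below 0.

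The difference between the effect of TNF with insulin and that without it was tested as an interaction. It called 0 of 7 genes by limma (3 at unadjusted p under 0.05), where 0.00745% of kept probe sets were called. That share is of adjusted calls and is no background for the 3 genes at unadjusted p under 0.05. HMGCS1 had an interaction of -0.90 (95% interval -1.43 to -0.37, adjusted p = 0.676), MSMO1 of -0.77 (-1.27 to -0.27, adjusted p = 0.891) and SQLE of -0.35 (-0.69 to -0.02, adjusted p = 0.903). All 7 were below 0, with a median of -0.40. The TNF effects with and without insulin are thus not shown to differ in this fit. With the replicate number as a block within each time, a fit the numbers at 4 h and 16 h did not meet the bar for, the interaction of HMGCS1 passed (adjusted p = 0.0165), as did the insulin 500 effect of HMGCS1 (0.62, adjusted p = 0.00977) and MSMO1 (0.39, adjusted p = 0.0291).

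TNF with EGF gave no such set. TNF 100 with EGF 100 against EGF 100 called 0 of 7 genes (2 at unadjusted p under 0.05), where 14.4% of kept probe sets were called, with changes from -0.05 for LSS to 0.37 for HMGCS1. At 16 h SQLE, with 5768 and 3793 under both factors and 3685 and 2581 under EGF, passed its single contrast (0.60, adjusted p = 0.0436; 12.8% of kept probe sets passed it). LSS passed the F test with the 8 h block (adjusted p = 0.0285), as it did when replicate 2 of EGF 100 at 8 h was left out, and SQLE did when replicate 2 of TNF 100 with EGF 100 at 16 h was left out. The 8 h block raised the calls over all kept probe sets in this comparison from 1937 to 2430. The TNF by EGF interaction called 0 of 7 (0 at unadjusted p under 0.05), where 0.0298% were called. EGF 100 added to TNF 100 called 0 of 7 (0 at unadjusted p under 0.05; 0.224% of kept probe sets, of which 60% were higher as deposited and 78.6% after median centring), insulin 500 added to TNF 100 0 of 7 (1 at unadjusted p under 0.05; 0.499%), EGF 1 added to TNF 5 0 of 7 (0; 0%) and insulin 5 added to TNF 5 0 of 7 (0; 0%).

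The 2 arrays of a group correlated at 0.929 to 0.977 over kept probe sets, and each array's trimmed mean signal (2% off either tail) was 500.2. The log2 ratio of 3′ to 5′ actin probe sets, a sign of RNA integrity, had medians of -0.06, -0.02 and 0.13 at 4, 8 and 16 h. It was highest at 1.19 on replicate 2 of TNF 100 at 8 h, 0.98 on replicate 2 of insulin 500 at 8 h and 0.63 on replicate 1 of TNF 100 with insulin 500 at 16 h. At 8 h it was below 0 on 9 of 9 replicate 1 arrays (-0.26 to -0.08) and above 0 on 9 of 9 replicate 2 arrays (0.04 to 1.19), the same division by which HMGCS1 and MSMO1 were brighter in replicate 2. The changes from 4 h to 16 h do not use the 8 h arrays. A fit without replicate 2 of TNF 100 and of insulin 500 at 8 h left 1 array in each of those groups. In it, TNF 100 with insulin 500 against insulin 500 changed IDI1 by -0.40, SQLE by -0.38 and INSIG1 by -0.60. IDI1 and SQLE lost their calls there, while INSIG1 passed. Beyond that fit the part of RNA integrity in the results was not tested. Of 10 intestinal epithelial markers 7 were kept, and the median signal over the 10 was 5230. CDX2, CDX1 and CDH17 were not kept (medians 12, 22 and 28). The sum of the 10 was 51415 to 74552 at 4 h and 53128 to 90321 at 16 h. Markers of other cell types were dimmer, with medians of 158 for fibroblast, 89 for leukocyte and 32 for endothelial markers. Of these, 4 of 5, 2 of 3 and 1 of 4 passed the filter, with COL1A1 the brightest (median 388). The summed signal of 3 leukocyte markers was 129 to 303 at 16 h, against 167 to 302 at 4 h, that of 5 fibroblast markers 678 to 1242, against 476 to 1152, and that of 4 endothelial markers 121 to 294, against 110 to 318, and their part in the results was not tested. Whether arrays of 1 time were processed together is not given in the sources used here, so time and such a batch cannot be told apart.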

How the data were processed

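MAS5 signals, an intensity on a linear scale, were deposited by the authors, per the labels and the submitters' processing notes; MAS5 settings are not given in the sources used here. From a table of 22283 probe sets, 68 control sets were removed. The values analysed were log2 of signal plus 12.49 (the 10th percentile), for probe sets with a group mean of at least 7.24 (the overall median) in 1 or more of 27 groups. Of 22215 probe sets, 19065 had 1 gene symbol, 1043 several and 2107 none; RefSeq gene IDs updated 19053 of the first.

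The model, fitted in R 4.3.3 by limma 3.58.1, had 27 group means, 27 residual degrees of freedom and variances moderated along an intensity trend. Treatment comparisons used the moderated F test over the 3 times, with Benjamini-Hochberg adjustment over all 13422 probe sets at 0.05 and a direction from the mean change. The code was tested on simulated data. The number of arrays limits precision. Genes were named by rule: the members, the 6 largest called genes of the related lists per comparison, SREBF1 and SREBF2, and the 10 most and 5 least alike in pattern. Members, lists and tests were chosen with earlier results of these data known. Alternatives were pseudocount, filter, scaling, subsets of treatments or arrays, replicate blocks and probe set choice. Replicate numbers come from the labels. Only at 8 h did 36 of 36 pairs of treatments correlate above 0.1, the bar set for a block (median 0.43). At 4 h and 16 h sharing was weaker but present, with medians of 0.20 and 0.21.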

Additional observations from a re-analysis of the deposited data

Results flagged for a closer look

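LIPA, the lysosomal acid lipase, was the 1 gene of the related lists whose TNF 100 effect differed between times by the moderated F test. On the log2 scale TNF changed it by 0.04 after 4 h, -0.60 after 8 h and 0.52 after 16 h. The effect at 16 h was 0.48 above that at 4 h (SE 0.25). The F test (adjusted p = 0.0198) covers the 8 h and 16 h differences from 4 h together and does not test the 0.48 alone. The call was lost after median centring (adjusted p = 0.151), with only these 2 treatments fitted (adjusted p = 0.203), without the 8 h arrays (adjusted p = 0.442), and without any 1 of replicate 1 of untreated cells at 8 or 16 h, either replicate of TNF 100 at 16 h or replicate 2 of TNF 100 at 8 h.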

How the results depend on the processing

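The lower signal at 16 h held throughout: 7 of 7 genes were called over all treatments, 6 of 7 for 16 h against 8 h and 5 of 7 in untreated cells whichever array was left out, and no other setting moved these counts by over 1.5 times. Treatment counts were less firm. With the replicate block within each time, 2 genes were called under insulin 500 against untreated, TNF 100 against TNF 5, TNF 100 against untreated, TNF 100 with EGF 100 against EGF 100 and TNF 5 against untreated, 7 under TNF 100 with insulin 500 against insulin 500, and 1 each under TNF 100 with insulin 500 against TNF 100 and the TNF by insulin interaction. Over all kept probe sets this block raised counts too, for example from 67 to 378 for TNF 100 with insulin 500 against TNF 100 and from 1 to 91 for the interaction. With the replicate block at 8 h only, 1 was called under TNF 100 against TNF 5 and under TNF 100 with EGF 100 against EGF 100, 2 under TNF 5 against untreated and 5 under TNF 100 with insulin 500 against insulin 500. In that order, this fit called 286, 2430, 1200 and 3372 of 13422 kept probe sets (170, 1937, 914 and 2726 as reported). Without the 8 h arrays, 1 was called under TNF 100 against TNF 5, 1 under TNF 5 against untreated and 0 under TNF 100 with insulin 500 against insulin 500. That last count was also 0 after median centring and with only its treatments fitted, and 5 with any probe set, which gave 1 for TNF 100 against TNF 5. TNF 100 against untreated gave 0 without a filter and with a pseudocount of 50. Leaving out 1 array gave 0 to 1 called for TNF 100 against untreated, TNF 5 against untreated, TNF 100 against TNF 5 and TNF 100 with EGF 100 against EGF 100, 0 to 3 for TNF 100 with insulin 500 against insulin 500 and 0 for the other treatment comparisons. Under TNF 5, MSMO1 changed by -0.075 without replicate 2 of TNF 5 at 8 h, where it passed (adjusted p = 0.0304), and by up to 0.18 without other single arrays, and HSD17B7, which changed by -0.11, by 0.055 without the 8 h arrays. The causes were not tested.

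There were 1379 alternative values for single genes of the 7, fits without 1 array not included. Of these 1339 kept their call or lack of one, 15 lost a call and 25 gained one. Direction was not kept in all of the 1339, since some changes that did not pass differed in sign between settings. INSIG1 under TNF 100 against untreated cells, for example, ran from -0.04 to 0.27 over the settings. Of the counts of separated arrays, SQLE had 6 of 8 treated groups above untreated cells at 4 h after median centring and LSS 3 of 8. Groups of 2 arrays limit what could be called for single times.

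Counts over all kept probe sets moved by over 1.5 times mainly under 2 settings. With only the treatments compared in the fit and with the replicate block within each time, TNF 100 against untreated called 1160 and 3347 probe sets (2194 as reported), TNF 100 with insulin 500 against insulin 500 called 1354 and 4201 (2726), TNF 5 against untreated 490 and 1705 (914), TNF 100 against TNF 5 49 and 503 (170), EGF 100 13 and 207 (80), insulin 500 0 and 160 (31), insulin 500 against EGF 100 4 and 320 (83) and time in untreated cells 360 and 2436 (1287). Median centring gave 1456 for TNF 100, 808 for untreated time, 7 for insulin 500, 88 for TNF 100 against TNF 5, 22 for TNF 100 with insulin 500 against TNF 100 (67 as reported), 14 for TNF 100 with EGF 100 against TNF 100 (30) and 167 for the TNF 100 effect by time (327). The fit of only the treatments compared could not be made for time over all treatments, nor 16 h against 8 h without the 8 h arrays.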
